A study of Homo sapiens with 12 samples.

Results

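The genes described here are 36 genes of the endoplasmic reticulum (ER) stress response and the amino acid response, taken from a count table of 12584 genes. They were chosen by name: a gene was a member when its Ensembl identifier in the count table mapped to a listed gene of the unfolded protein response, ATF4 target set, amino acid transport or serine synthesis. All 36 were found, and they were placed in 7 roles. RNA-seq covered 4 groups of 3 libraries each, 12 in all, from A549 and PC9, which are established human lung adenocarcinoma cell lines. In each line, cells stably infected with the lentiviral vector pCDH-HOXC6 (A549-HOXC6 and PC9-HOXC6) were compared with cells that carried the empty vector pCDH-NEO (A549-NEO and PC9-NEO). HOXC6 is a homeobox transcription factor, and the study sequenced these cells to find genes downstream of it. Every group therefore carried a vector and had been grown under neomycin selection. The lines were kept in different culture media, so a line and its medium cannot be told apart. The study describes 3 independent replicates for the libraries, without saying at which step they were independent. Nothing in the sources used here says whether the cells were clones, or that the 3 libraries of a group came from separate cultures. The p-values therefore measure the spread between libraries, which may be technical.

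Misfolded protein in the ER activates 3 sensors, PERK, IRE1 and ATF6, in the unfolded protein response. PERK phosphorylates the translation factor eIF2alpha, as do other kinases when amino acids are scarce, and translation of ATF4 then rises while general translation falls. IRE1 splices the mRNA of XBP1, and ATF6 and spliced XBP1 raise ER chaperones and the degradation machinery. ATF4 raises amino acid transporters, serine synthesis and asparagine synthetase, and with prolonged stress also regulators such as TRIB3 and CHAC1. Because ATF4 is controlled largely at translation and XBP1 by splicing, gene-level mRNA counts do not measure the activity of either factor.

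The libraries held 1212053 to 3286577 counts in the table used, and 3 counts corresponded to 0.914 to 2.56 CPM (counts per 1000000). HOXC6 itself was not in the table used and was not analysed here, so the labels could not be checked on it. Epithelial markers were detected in every group: the summed level of the 3 of 7 in the table was 1322 to 1377 CPM in A549-NEO, 1768 to 2206 in A549-HOXC6, 6166 to 6684 in PC9-NEO and 6125 to 6310 in PC9-HOXC6. KRT18 gave most of each epithelial sum, and the higher sum of A549-HOXC6 did not extend to CDH1. CDH1 had 161 to 445 counts per A549 library with HOXC6, beside 451 to 526 with NEO, and was lower for library size too. EPCAM had at most 20 counts per A549 library. Markers of other cell types were low: the 2 blood markers of 4 summed to 0 to 2.67 CPM, the 1 endothelial marker of 3 to 0 to 2.13 CPM, and the 4 fibroblast markers to 19.5 to 76.8 CPM. COL1A1 gave nearly all of the fibroblast sum. Whether these shifts bore on the member genes was not tested. Among all genes, the highest mean count belonged to BEST1 (69177 counts), whose exons share 1267 bp with FTH1 on the opposite strand (14486 counts). The library kit keeps strand, but the strand setting of the counting is not given in the sources used here. SH3D19 (10173 counts) likewise stood above RPS3A, which it faces (1333 counts), MRNIP (8682 counts) above SQSTM1 (3577) and ENO3 (5900) above PFN1 (3816). The other way, EEF1A1 (24672 counts) stood above MTO1 (29.1), RPL10 (5928) above DNASE1L1 (330) and LAMA5 (5918) above ADRM1 (700). Whether reads were counted on the opposite strand was not tested for any gene. Reads of genes that face each other cannot be told apart here. Of the 36 genes, PDIA6 faces a better counted gene, ATP6V1C2, with which it shares 1033 bp (mean 982 and 2681 counts). ALDH1L2 (mean 23.1 counts) faces WASHC4 (40.7 counts, 131 bp shared) and NOPCHAP1 (27.1 counts, 145 bp shared).

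Levels are given below as CPM scaled by the TMM method over the 12 libraries. The effect of HOXC6 in a line was tested as HOXC6 against NEO with edgeR (quasi-likelihood test, Benjamini-Hochberg adjustment over all genes tested). A gene rose or fell when its adjusted p was below 0.05, and it was called when its log2 fold change was also above 1 or below -1. In A549, 13 of the 36 genes rose and 11 fell, beside 18.9% and 20.7% of all genes tested (39.6% in either direction). Of these, 2 were called, CHAC1 upward, beside 1.70% of all genes, and HSP90B1 downward, beside 5.51%, or 7.21% in all. With a log2 limit of 0.58 in place of 1, 12 were called in A549, beside 22.6% of all genes, 2 in PC9, beside 12.3%, and 11 for the difference between the lines, beside 13.9%. In PC9, 34 of the 36 passed the filter on low counts, 3 rose and 7 fell, beside 13.3% and 14.2% of all genes (27.5% in either direction). With scaling by library size only, 2 rose and 11 fell, but the share of all genes was not worked out for that scaling. None of the 34 was called in PC9 by edgeR or by DESeq2, beside 4.53% of all genes in edgeR (0.962% higher and 3.56% lower). Of the 34, 14 had an unadjusted p below 0.05 in edgeR, for which the share of all genes was not worked out. In A549, all HOXC6 libraries lay above all NEO libraries for 12 of the 36 genes and below them for 12, beside 26.8% and 23.6% of all genes. In PC9 this held for 4 and 11 of 34 genes, beside 19.5% and 20.4%. The median log2 fold change of the members was -0.03 in A549 and -0.09 in PC9.

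The difference between the lines was tested directly, as the PC9 minus A549 difference of the log2 fold change over 12 libraries. It passed an adjusted p of 0.05 for 14 of the 36 genes in edgeR's quasi-likelihood test, 4 with a higher and 10 with a lower value in PC9, beside 8.44% and 10.9% of all genes (19.4% in either direction). For 6 genes the difference was called, always toward a lower value in PC9, beside 5.15% of all genes in either direction, 2.38% higher and 2.76% lower. These were CHAC1, the transporter genes SLC7A5, SLC3A2 and SLC1A4, and the enzyme genes PSPH and GPT2. A correction for GC content and length kept these 6 and added DDIT4.

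**Figure D1:**
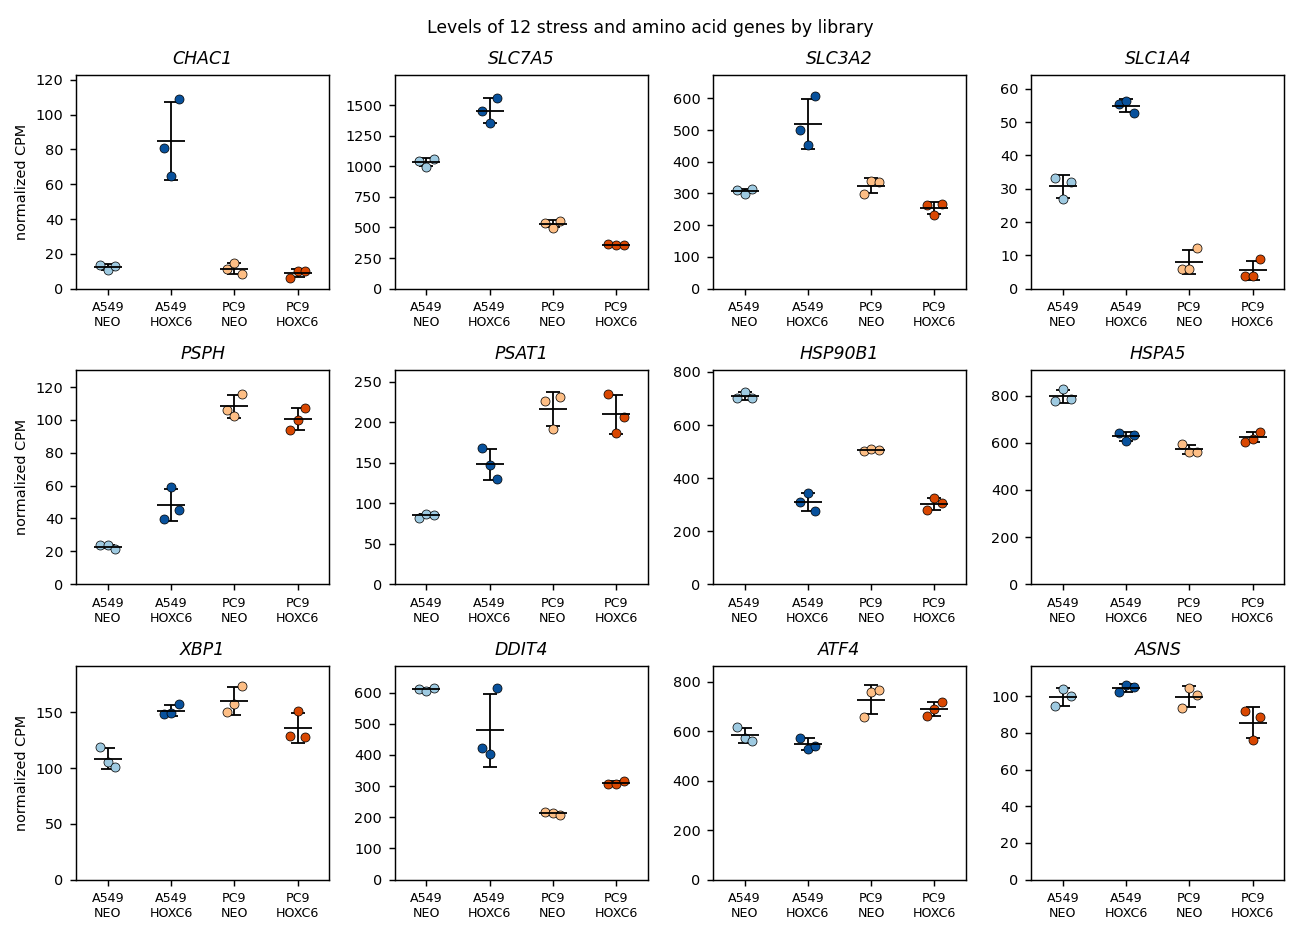
Normalized CPM (y axis, from 0) of 12 genes in the 4 groups (x axis); each point is 1 library, and the horizontal line and bar give the mean and SD of 3 libraries. CHAC1 lay between 64.9 and 109 CPM in A549-HOXC6 and at or below 14.6 CPM in every other library, while HSP90B1 was lower with HOXC6 in both lines.

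Among the 36 genes, CHAC1 had the largest HOXC6 effect in A549. It encodes a gamma-glutamylcyclotransferase that degrades glutathione and is a late target of ATF4. Its level was 13.9, 10.8 and 12.9 CPM in the A549-NEO libraries and 80.7, 64.9 and 109 CPM in A549-HOXC6. All A549-HOXC6 libraries lay far above all A549-NEO libraries, although they also spread more. CHAC1 rose 6.58-fold in A549 (log2 fold change 2.72, SE 0.19, adjusted p = 1.03e-11, edgeR). In PC9-NEO the level was 11.3, 14.6 and 8.47 CPM, and in PC9-HOXC6 it was 6.26, 10.3 and 10.1 CPM. The PC9 groups overlapped, with a log2 fold change of -0.35 (SE 0.32, adjusted p = 0.443 in edgeR). The PC9 minus A549 difference was -3.11 (SE 0.37, adjusted p = 4.29e-08, edgeR). With the GC correction the change in A549 was 2.36, and it was 2.53 to 2.84 when single libraries were left out.

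The other stress effectors did not follow CHAC1. DDIT4 (REDD1), an inhibitor of mTORC1, was singled out after its values were seen, because it passed the threshold in opposite directions in the lines. Its level was 611, 606 and 615 CPM in A549-NEO and 421, 403 and 613 CPM in A549-HOXC6. Replicate 3 of A549-HOXC6 lay within the range of the controls and the other 2 lay below it. DDIT4 fell by 0.39 on the log2 scale (SE 0.10, adjusted p = 0.00288, edgeR), and by 0.59 without that replicate. In PC9 it was 216, 214 and 207 CPM with NEO and 308, 308 and 316 CPM with HOXC6, with no overlap. It rose there by 0.55 (SE 0.07, adjusted p = 1.12e-06, edgeR), and the difference between the lines was 0.90 (SE 0.14, adjusted p = 6.56e-06, edgeR). After the GC correction its changes were -0.78 in A549 and 0.31 in PC9, and both passed. STC2, a secreted glycoprotein induced by ER stress, fell in both lines, by 0.45 in A549 and by 0.34 in PC9. It did not pass in A549 without A549-HOXC6 replicate 1 (-0.35), or in PC9 without PC9-NEO replicate 3 (-0.26). SESN2, a leucine sensor and stress regulator of mTORC1, had log2 fold changes of 0.01 and 0.33 and passed the threshold in neither line. VLDLR, a lipoprotein receptor induced through ATF4, had values of 0.16 and -0.49 and passed in neither. After the GC correction it was higher in A549, at 0.47 (adjusted p = 0.000289, edgeR).

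Among the transcription factors and their regulators, ATF4 mRNA itself passed the threshold in neither line. It stood at 616, 572 and 561 CPM in A549-NEO and at 574, 529 and 543 CPM in A549-HOXC6. In PC9-NEO it was 659, 760.3 and 766 CPM, and in PC9-HOXC6 661, 691 and 717 CPM. The groups overlapped in both lines, with log2 fold changes of -0.13 (SE 0.08) and -0.08 (SE 0.07). After the GC correction, ATF4 was lower in both lines, at -0.47 (adjusted p = 3.41e-07, edgeR) and -0.28 (adjusted p = 0.0017, edgeR).

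XBP1, the factor spliced by IRE1, moved in opposite directions. In A549 its level went from 119, 106 and 101 CPM with NEO to 148, 149.6 and 157 CPM with HOXC6, with no overlap, and it rose by 0.44 on the log2 scale (SE 0.11, adjusted p = 0.00172, edgeR). In PC9 the values were 150, 157 and 174 CPM against 129, 152 and 128 CPM. One PC9-HOXC6 library lay above the lowest PC9-NEO library, and XBP1 fell by 0.25 (SE 0.09, adjusted p = 0.0421, edgeR), which did not pass with DESeq2 (adjusted p = 0.144), in edgeR's model of 12 libraries (adjusted p = 0.0654) or without PC9-NEO replicate 2 or 3 or PC9-HOXC6 replicate 1 or 3. The difference between the lines was -0.73 (SE 0.14, adjusted p = 0.000233, edgeR). With the GC correction the rise in A549 was 0.17 and no longer passed (adjusted p = 0.161, edgeR), while the difference between the lines still did, at -0.62. The PC9 change was then -0.42 (adjusted p = 0.00124, edgeR).

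CEBPG, which pairs with ATF4 on DNA, fell in A549 from 108, 118 and 98.4 CPM to 81.7, 67.5 and 65.1 CPM, a change of -0.62 (SE 0.13, adjusted p = 0.000275, edgeR). PC9 values were 32.9, 36.7 and 29.2 CPM with NEO and 28.9, 47.1 and 34.1 CPM with HOXC6, and these groups overlapped. The change there was 0.12 (SE 0.18), and the difference between the lines was 0.69 (SE 0.22, adjusted p = 0.0202, edgeR). That difference did not pass without A549-NEO replicate 2 (0.63), PC9-NEO replicate 3 (0.61) or PC9-HOXC6 replicate 2 (0.53). TRIB3, a pseudokinase that restrains ATF4, fell by 0.37 in PC9 (adjusted p = 0.00268, edgeR) and had a value of -0.10 in A549. ATF6, the membrane-bound sensor, had values of -0.37 and 0.06 and passed in neither line. ATF3, a stress-induced factor, had a value of -0.43 in A549 that did not pass, and with 4 to 25 counts per PC9 library it was not tested in PC9.

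HSP90B1 (GRP94), the HSP90 chaperone of the ER lumen, fell in both lines. It stood at 701, 725 and 701 CPM in A549-NEO and at 309.5, 343 and 276 CPM in A549-HOXC6. In PC9 it went from 501, 509 and 506 CPM to 278, 323 and 307 CPM. No library of one group reached the range of the other in either line. The log2 fold change was -1.25 in A549 (SE 0.09, adjusted p = 1.03e-11, edgeR) and -0.74 in PC9 (SE 0.07, adjusted p = 2.42e-09, edgeR). HSP90B1 remained lower after the GC correction, at -0.89 and -0.47, but was then outside the call rule in A549. The fall was smaller in PC9 by 0.46 on the log2 scale (SE 0.11, adjusted p = 0.00289, edgeR). Exons of HSP90B1 share 805 bp with UQCC6 on the opposite strand.

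HSPA5 (BiP), the HSP70 chaperone that holds the ER sensors inactive, was 777, 827 and 785 CPM in A549-NEO and 642, 607 and 632 CPM in A549-HOXC6. It fell by 0.39 without overlap (SE 0.07, adjusted p = 0.000146, edgeR). PC9 values were 593, 559.8 and 561 CPM with NEO and 605, 618 and 647 CPM with HOXC6. All PC9-HOXC6 libraries lay slightly above, but the change of 0.13 (SE 0.06, adjusted p = 0.122, edgeR) did not pass, and the difference between the lines was 0.47 (SE 0.10, adjusted p = 0.000575, edgeR).

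The other 3 genes of ER folding differed from each other. DNAJB9, an HSP40 cochaperone of HSPA5, fell in A549 from 32.2, 34.1 and 29.8 CPM to 20.7, 17.9 and 24.0 CPM, a change of -0.64 (SE 0.19, adjusted p = 0.00912, edgeR). After the GC correction it was -0.19 and did not pass (adjusted p = 0.5, edgeR). In PC9 the values were 15.6, 16.6 and 11.4 CPM against 12.5, 16.2 and 8.83 CPM, and the groups overlapped. PDIA4, a disulfide isomerase, rose in both lines by 0.36 and 0.29, and passed in neither after the GC correction. PDIA6, another disulfide isomerase, had values of -0.07 and -0.03. The gene that faces it, ATP6V1C2, had values of 0.34 (adjusted p = 0.00074, edgeR) and 0.10 (adjusted p = 0.348, edgeR).

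In ER-associated degradation, which returns misfolded proteins to the cytosol, 1 of 4 genes rose and 2 fell in A549, beside 18.9% and 20.7% of all genes. None passed in PC9, beside 27.5% of all genes. HERPUD1, a membrane component of the retrotranslocation complex, rose in A549 from 33.9, 26.5 and 26.7 CPM to 46.9, 51.3 and 41.1 CPM without overlap (log2 fold change 0.61, SE 0.17, adjusted p = 0.00558, edgeR). PC9 values were 36.1, 49.8 and 40.2 CPM against 39.0, 48.6 and 37.2 CPM, with overlap. The change in PC9 was -0.05 (SE 0.16), and the difference between the lines was -0.71 (SE 0.24, adjusted p = 0.0299, edgeR). It did not pass with DESeq2 (-0.66, adjusted p = 0.0824), nor without A549-NEO replicate 2 or 3, A549-HOXC6 replicate 1 or 2, PC9-NEO replicate 2 or PC9-HOXC6 replicate 1 or 3 (-0.69 to -0.57). SEL1L, the adaptor of the ubiquitin ligase, fell in A549 from 93.8, 106 and 99.6 CPM to 65, 67.5 and 49.6 CPM, a change of -0.76 (SE 0.13, adjusted p = 4.39e-05, edgeR). Its PC9 values were 35.1, 43.7 and 34.7 CPM against 30.8, 22.8 and 30.8 CPM. The PC9 libraries did not overlap, but the change of -0.39 (SE 0.17, adjusted p = 0.0999, edgeR) did not pass. After the GC correction the A549 change of SEL1L was -0.28 and did not pass (adjusted p = 0.062, edgeR). EDEM1, a mannosidase-like protein that selects glycoproteins for degradation, fell in A549 by 0.38 (SE 0.15, adjusted p = 0.0399, edgeR), but did not pass without A549-HOXC6 replicate 3 (-0.24) or without any 1 of the A549-NEO libraries. SYVN1, the ubiquitin ligase itself, had values of -0.21 and 0.05 and passed in neither.

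The promoters of the genes at both ends of these results were set beside those of related members. RefSeq promoter windows of GRCh38.p14, from 250 bases before to 50 bases after the start, matched 33 of the 36 genes. Where a gene had several windows, only the first listed was searched. The CEBP-ATF response element, bound by ATF4 with a CEBP partner, was searched as TGATGNAA, the ER stress response element as CCAAT and CCACG with 9 bases of any kind between them, and the unfolded protein response element as TGACGTGG, each on both strands. The first was in 5 of the 33 (15.2%), ATF3, HERPUD1, CHAC1, SLC3A2 and ASNS, beside 3.67% of 27305 promoters. The second was in 3 (9.09%), XBP1, HSPA5 and HSP90B1, the last with a match on each strand, beside 0.0806% of all promoters. The third was in 1 (3.03%), ALDH18A1, beside 0.795%. The members were listed by name as genes of the responses these motifs are known for. A higher share than over all promoters was therefore built into the choice, and no conclusion is drawn from it. The 250 bases before the start are printed for CHAC1 and ASNS, which share the first motif, and for HSPA5, HSP90B1 and XBP1, which share the second, each on the strand of its gene with the motif in capitals. The positions are chr15:40953221-40953470 on the forward strand for CHAC1, chr7:97872409-97872658 on the reverse strand for ASNS, chr9:125241344-125241593 on the reverse strand for HSPA5, chr12:103930160-103930409 on the forward strand for HSP90B1 and chr22:28800570-28800819 on the reverse strand for XBP1.
CHAC1: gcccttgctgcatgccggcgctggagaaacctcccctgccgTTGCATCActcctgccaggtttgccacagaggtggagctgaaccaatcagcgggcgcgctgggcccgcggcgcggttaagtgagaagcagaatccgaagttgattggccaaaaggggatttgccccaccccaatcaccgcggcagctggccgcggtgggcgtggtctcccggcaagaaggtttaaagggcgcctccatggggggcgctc
ASNS: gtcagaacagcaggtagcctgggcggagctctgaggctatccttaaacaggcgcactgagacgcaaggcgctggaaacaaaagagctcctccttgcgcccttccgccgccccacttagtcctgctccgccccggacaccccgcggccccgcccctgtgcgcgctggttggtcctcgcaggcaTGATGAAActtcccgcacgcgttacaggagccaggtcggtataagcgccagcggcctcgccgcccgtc
HSPA5: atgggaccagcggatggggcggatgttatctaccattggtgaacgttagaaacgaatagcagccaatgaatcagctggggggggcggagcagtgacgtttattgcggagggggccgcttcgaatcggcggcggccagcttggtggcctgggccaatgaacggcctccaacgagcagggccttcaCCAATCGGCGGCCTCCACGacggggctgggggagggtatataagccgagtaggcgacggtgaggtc
HSP90B1: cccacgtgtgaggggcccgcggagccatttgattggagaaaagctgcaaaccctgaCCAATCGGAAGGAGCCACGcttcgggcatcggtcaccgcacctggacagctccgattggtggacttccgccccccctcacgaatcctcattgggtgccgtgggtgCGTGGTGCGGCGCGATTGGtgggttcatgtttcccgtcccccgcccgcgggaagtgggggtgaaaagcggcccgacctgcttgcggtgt
XBP1: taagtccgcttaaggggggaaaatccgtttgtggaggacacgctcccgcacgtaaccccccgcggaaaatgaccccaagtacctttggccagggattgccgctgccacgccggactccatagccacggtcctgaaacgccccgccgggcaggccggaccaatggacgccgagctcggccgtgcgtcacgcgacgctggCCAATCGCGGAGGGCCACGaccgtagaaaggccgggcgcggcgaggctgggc
Of the 5 genes with the first motif, CHAC1, SLC3A2 and HERPUD1 rose in A549, beside 18.9% of all genes. ATF3 did not pass there, and ASNS passed in neither line. In PC9 SLC3A2 fell (-0.35), CHAC1 (-0.35) and HERPUD1 (-0.05) did not pass, and ATF3 was not tested. Of those with the second, XBP1 rose and HSPA5 and HSP90B1 fell in A549, beside 18.9% and 20.7% of all genes. In PC9 XBP1 and HSP90B1 fell, beside 14.2%, and HSPA5 did not pass. After the GC correction the XBP1 change in A549 was 0.17 and did not pass, and ATF3 was lower there (-0.68). A match is a run of letters and was not tested as a binding site. Whether a motif went with a direction of change was not tested either.

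Of the 5 amino acid transporter genes, 4 rose and 1 fell in A549, whereas in PC9 none rose and 3 fell, beside 18.9% higher and 20.7% lower of all genes in A549 and 13.3% and 14.2% in PC9. The difference between the lines passed for 4 of the 5, each lower in PC9, beside 10.9% of all genes. The median difference of the 5 was -1.06, beside -0.05 over all genes. SLC7A5 (LAT1) carries large neutral amino acids such as leucine and pairs with SLC3A2 (CD98 heavy chain). SLC7A5 stood at 1042, 995 and 1061 CPM in A549-NEO and at 1450, 1352 and 1559 CPM in A549-HOXC6. In PC9 it went from 534, 499 and 554 CPM to 362, 355 and 359 CPM. The groups were apart in both lines, in opposite directions, with log2 fold changes of 0.45 (SE 0.07, adjusted p = 1.11e-05, edgeR) and -0.56 (SE 0.07, adjusted p = 1.61e-07, edgeR). The difference was -1.06 (SE 0.10, adjusted p = 4.37e-10, edgeR). After the GC correction the changes of SLC7A5 were 0.17 in A549 and -0.83 in PC9, and both passed.

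Its partner SLC3A2 showed the same pair of directions. It was 311, 299 and 313 CPM in A549-NEO and 500.2, 451 and 606 CPM in A549-HOXC6. PC9 values were 297, 341 and 337 CPM with NEO and 262, 233 and 265 CPM with HOXC6, again with no overlap in either line. The changes were 0.71 (SE 0.09, adjusted p = 5.67e-07, edgeR) and -0.35 (SE 0.08, adjusted p = 0.000906, edgeR), and the difference was -1.11 (SE 0.13, adjusted p = 2.08e-08, edgeR). Without A549-HOXC6 replicate 3 the difference was -0.99 and fell outside the call rule.

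SLC1A4 (ASCT1), a neutral amino acid exchanger, rose in A549 from 33.2, 26.9 and 32.2 CPM to 55.6, 56.4 and 52.8 CPM without overlap (log2 fold change 0.79, SE 0.16, adjusted p = 0.00026, edgeR). In PC9 it was near the limit of counting, with 11, 12 and 29 counts in PC9-NEO and 8, 5 and 29 counts in PC9-HOXC6. The PC9 change was -0.45 (SE 0.40, adjusted p = 0.43, edgeR) and the groups overlapped. The difference of -1.27 (SE 0.39, adjusted p = 0.0188, edgeR) depended on single PC9 libraries: it was -0.79 (adjusted p = 0.242, edgeR) without PC9-NEO replicate 3, -1.04 (adjusted p = 0.0729, edgeR) without PC9-HOXC6 replicate 1 and -1.96 without PC9-HOXC6 replicate 3. SLC1A5 (ASCT2), a glutamine carrier, rose in A549 by 0.37 (SE 0.08, adjusted p = 0.000351, edgeR) and had 0.05 in PC9, with a difference of -0.37 (adjusted p = 0.0175, edgeR). The difference did not pass with DESeq2 (-0.32, adjusted p = 0.0504), nor without A549-NEO replicate 3 (-0.31), PC9-NEO replicate 3 (-0.30) or PC9-HOXC6 replicate 1 (-0.32). After the GC correction its A549 change was 0.05 and no longer passed, and its PC9 change was -0.21 and passed (adjusted p = 0.024, edgeR).

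SLC38A2 (SNAT2), which is induced when amino acids are short, was the transporter that fell in both lines. Its A549 values were 212, 231 and 219.6 CPM with NEO and 191, 173 and 119 CPM with HOXC6. Its PC9 values were 237, 290 and 247 CPM against 151, 183 and 171 CPM. Neither line had overlap, and the changes were -0.49 (SE 0.12, adjusted p = 0.00227, edgeR) and -0.62 (SE 0.09, adjusted p = 3.87e-06, edgeR). Without A549-HOXC6 replicate 3 the A549 change was -0.29. SLC38A2 had a GC content of 37.4%, and after the GC correction its changes were 0.05 and -0.18 and passed in neither line.

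**Figure D2:**
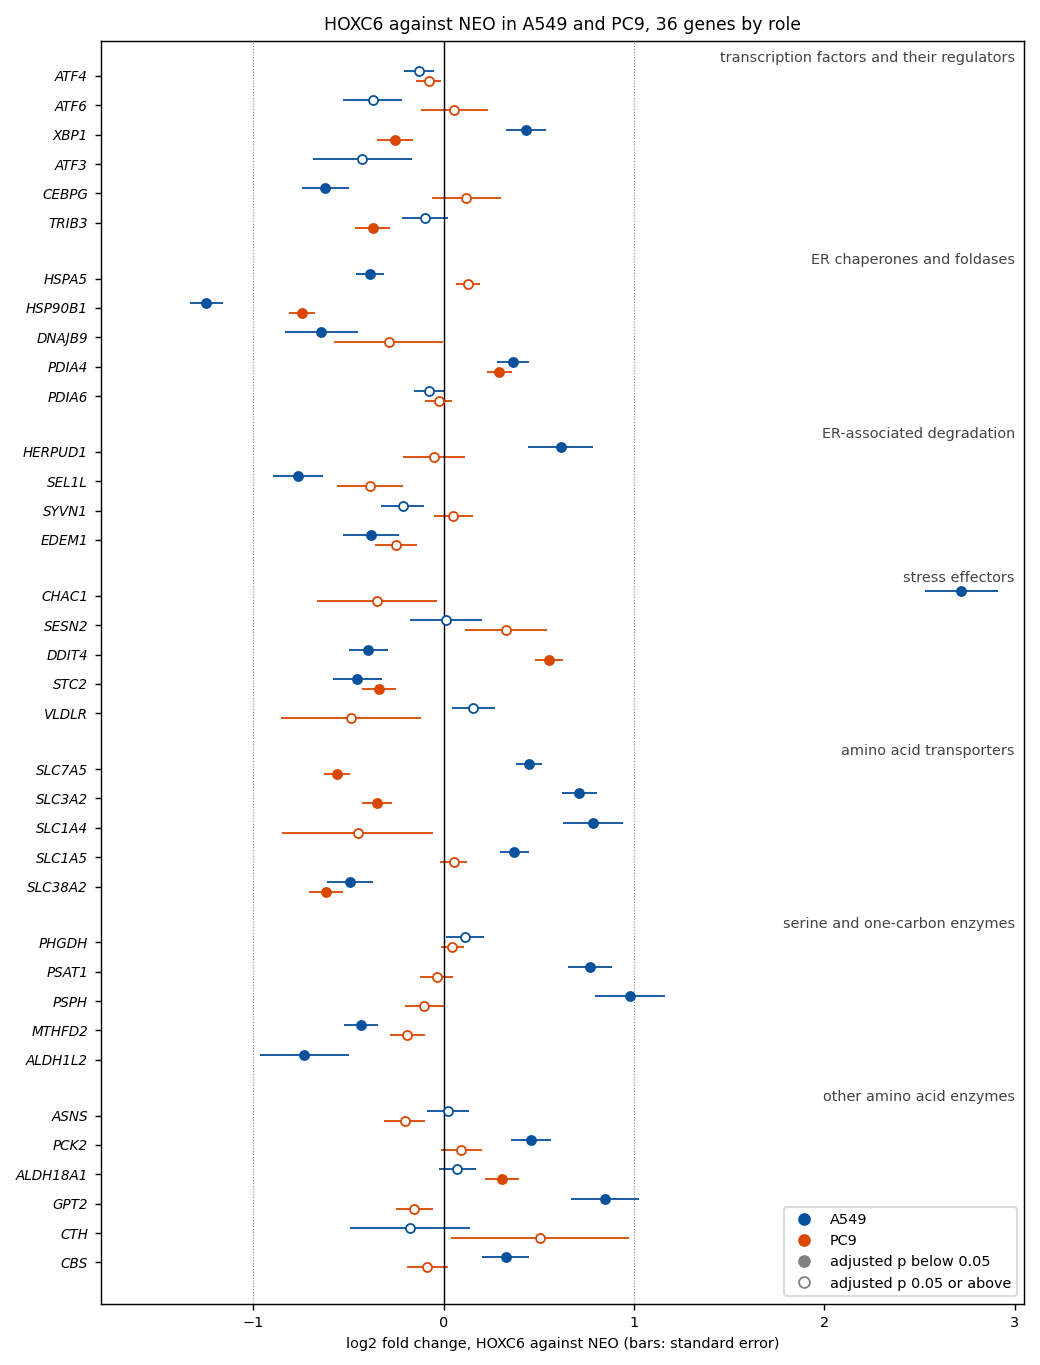
Log2 fold change of HOXC6 against NEO (x axis) with its standard error for the 36 genes, listed by role (y axis), in A549 (blue) and PC9 (orange); filled points have an adjusted p below 0.05, dotted lines mark the call thresholds, and ATF3 and ALDH1L2 were not tested in PC9. Most transporters lay right of 0 in A549 and left of 0 in PC9, SLC38A2 lay left of 0 in both, and CHAC1 in A549 stood at 2.72.

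Serine is made from a glycolytic intermediate in 3 steps, by PHGDH, PSAT1 and PSPH, and feeds the mitochondrial one-carbon enzymes MTHFD2 and ALDH1L2. In A549 the last 2 steps rose and the one-carbon genes fell, but neither one-carbon fall passed after the GC correction. In PC9 none of the 4 genes tested passed, beside 27.5% of all genes. PSAT1, the aminotransferase, rose in A549 from 82.1, 86.2 and 85.9 CPM to 167, 147 and 129 CPM, with every HOXC6 library above every NEO library (log2 fold change 0.77, SE 0.12, adjusted p = 7.03e-06, edgeR). Its PC9 values were 226, 192 and 230.4 CPM against 235, 187 and 206 CPM, with overlap. The PC9 change was -0.04 (SE 0.09), and the difference was -0.85 (SE 0.15, adjusted p = 4.87e-05, edgeR).

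PSPH, the phosphatase of the last step, was 23.5, 23.7 and 21.6 CPM in A549-NEO and 40.0, 59.0 and 45.4 CPM in A549-HOXC6. It rose by 0.98 (SE 0.18, adjusted p = 0.000115, edgeR), just outside the call rule, with no overlap. It was called with DESeq2 (1.005) and in the model of 12 libraries (1.014). It was also called without A549-NEO replicate 1 or 2 or A549-HOXC6 replicate 1 or 3. Over all fits with a library left out, it ranged from 0.84 to 1.11. After the GC correction the change of PSPH in A549 was 0.75, outside the call rule. In PC9 PSPH stood at 106, 103 and 116 CPM with NEO and at 93.9, 100.1 and 108 CPM with HOXC6. Those groups overlapped at a change of -0.10 (SE 0.10), and the difference was -1.12 (SE 0.20, adjusted p = 6.83e-05, edgeR). Without A549-HOXC6 replicate 2 it was -0.9974, outside the call rule. PHGDH, the first enzyme, had values of 0.11 and 0.05 and passed in neither line.

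MTHFD2 fell by 0.43 in A549 (SE 0.09, adjusted p = 0.000342, edgeR), had -0.19 in PC9, and had -0.03 in A549 after the GC correction. ALDH1L2 fell in A549 from 22.5, 21.7 and 23.1 CPM to 15.6, 15.4 and 10.7 CPM, a change of -0.73 (SE 0.23, adjusted p = 0.014, edgeR). Without A549-HOXC6 replicate 3 the change was -0.56 and did not pass (adjusted p = 0.0709, edgeR). After the GC correction it was -0.40 and did not pass (adjusted p = 0.193, edgeR). PC9 libraries held only 0 to 8 counts of ALDH1L2, so it was not tested in PC9.

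Of the 6 other amino acid enzymes, 3 rose and none fell in A549, beside 18.9% and 20.7% of all genes. In PC9 1 rose and none fell, beside 13.3% and 14.2%. GPT2, the mitochondrial alanine aminotransferase, rose in A549 from 25.3, 20.5 and 22.4 CPM to 44, 46.1 and 37.4 CPM without overlap (log2 fold change 0.85, SE 0.18, adjusted p = 0.000495, edgeR). In PC9 it was 139.7, 120.1 and 127 CPM with NEO and 113, 123 and 114 CPM with HOXC6. The PC9 groups overlapped, the change was -0.15 (SE 0.10), and the difference was -1.04 (SE 0.19, adjusted p = 9.12e-05, edgeR), which was outside the call rule with DESeq2 (-0.9981), with RLE scaling (-0.9962), with the GC content and length correction joined to the replicate block (-0.998), without A549-NEO replicate 2 (-0.97) and without PC9-NEO replicate 1 (-0.99). ASNS, asparagine synthetase, stood at 94.5, 104 and 99.99 CPM in A549-NEO, 102, 106 and 105 CPM in A549-HOXC6, 93.3, 105 and 101 CPM in PC9-NEO and 92.0, 75.8 and 88.6 CPM in PC9-HOXC6. Its log2 fold changes were 0.02 (SE 0.11) and -0.20 (SE 0.11), and neither passed. Exons of ASNS share 2415 bp with a long non-coding RNA on the same strand.

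PCK2, the mitochondrial enzyme that makes phosphoenolpyruvate, rose in A549 by 0.46 and had 0.09 in PC9. CBS, the first enzyme of transsulfuration, rose in A549 by 0.33 and had -0.08 in PC9. The rise of CBS did not pass without A549-HOXC6 replicate 3 (0.20, adjusted p = 0.171, edgeR), A549-NEO replicate 1 (0.35) or A549-NEO replicate 2 (0.21), and neither PCK2 nor CBS passed in A549 after the GC correction. ALDH18A1, which starts proline synthesis, rose in PC9 by 0.31 (adjusted p = 0.0101, edgeR) and had 0.07 in A549. The rise did not pass after the GC correction (0.14) or with library size only (0.22). CTH, the next enzyme of transsulfuration, had 5 to 34 counts per library and passed in neither line.

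Fold changes in this series moved with the GC content of the transcript. Across all genes, Spearman's rho between GC content and log2 fold change was 0.530 in A549 and 0.527 in PC9. Across the members it was 0.559 in A549 (36 genes) and 0.155 in PC9 (34 genes). These are descriptions across genes that share libraries. Each library was then corrected for its own curve of counts on GC content and length, and rho over the members became 0.07 in A549 and -0.50 in PC9. With the correction, 14 of the 24 members that had passed in A549 still did, 10 did not, and 5 others did. These were VLDLR (0.47), which was higher, and ATF4 (-0.47), TRIB3 (-0.42), SYVN1 (-0.49) and ATF3 (-0.68), which were lower. In PC9 7 of 10 still passed, 3 did not, and 4 others did, namely ATF4, SLC1A5, GPT2 and CBS, all lower. The counts were therefore 9 higher and 10 lower in A549, beside 12.4% and 18.4% of all genes. In PC9 they were 1 higher and 10 lower, beside 8.40% and 12.6%. CHAC1, SLC7A5, SLC3A2, SLC1A4, PSAT1, PSPH, GPT2 and HERPUD1 still rose in A549, and HSP90B1, HSPA5, CEBPG, DDIT4, STC2 and EDEM1 still fell there.

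**Figure D3:**
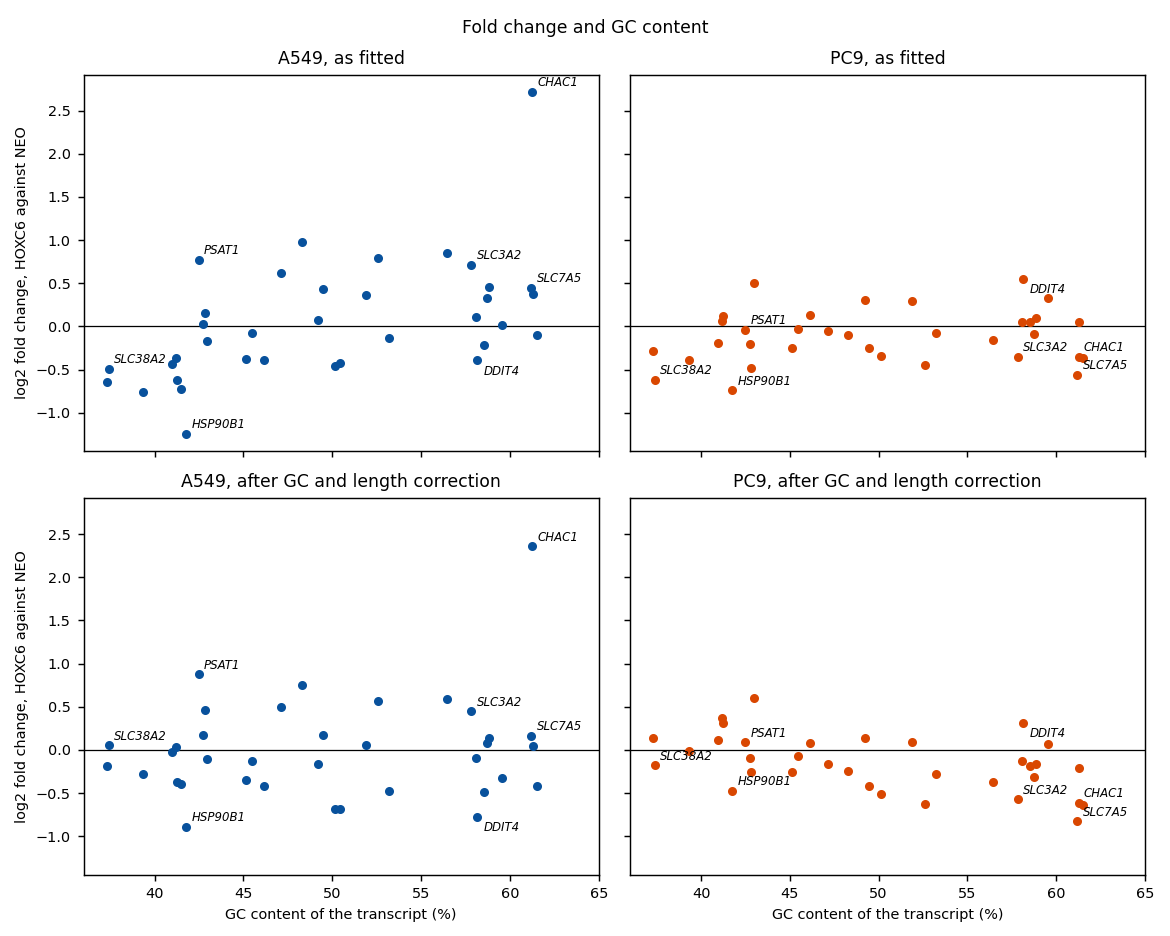
Log2 fold change of HOXC6 against NEO (y axis) against the GC content of the canonical transcript in percent (x axis), in A549 (left, 36 genes) and PC9 (right, 34 genes), as fitted (top) and after correction for GC content and length (bottom); each point is 1 gene. CHAC1 stood apart in A549 in both panels, at 2.72 and 2.36, while SLC38A2 moved from -0.49 to 0.05.

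With the empty vector alone, all 5 serine and one-carbon genes differed between the lines past the call rule, 3 higher and 2 lower in PC9-NEO. PC9-NEO was compared with A549-NEO in the same way, and the same NEO libraries serve as controls above. Of the 36 genes, 12 were higher and 19 lower in PC9-NEO, beside 35.7% and 36.9% of all genes (72.7% in either direction). The call rule held for 5 higher and 11 lower, beside 16.4% and 19.6%. All PC9-NEO libraries lay above all A549-NEO libraries for 12 genes and below them for 16, beside 38.2% and 36.3% of all genes. With scaling by library size only, the calls were 7 higher and 9 lower, without a share of all genes worked out for that scaling.

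PHGDH stood at 147, 136 and 151 CPM in A549-NEO and at 649, 675 and 699 CPM in PC9-NEO. All PC9-NEO libraries were far above, with a log2 difference of 2.18 (SE 0.07, adjusted p = 1.08e-25, edgeR). PSPH (2.20), PSAT1 (1.31) and GPT2 (2.46) were likewise called higher in PC9-NEO, and these 4 genes were higher in every PC9-NEO library than in any A549-HOXC6 library. The fifth gene called higher was STC2, at 1.003, on the edge of the threshold, and it fell outside the call rule with DESeq2 and without A549-NEO replicate 2 (0.92) or PC9-NEO replicate 3 (0.93).

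Both one-carbon genes were lower in PC9-NEO, MTHFD2 by 1.02 and ALDH1L2 by 3.94 on the log2 scale. MTHFD2 was outside the call rule after the GC correction (-0.92), with library size only (-0.91), in the model of 12 libraries (-0.98) and without PC9-NEO replicate 1 (-0.96) or 3 (-0.98). Among the transporters, SLC7A5 was lower (-1.004) and SLC1A4 also (-1.92), while SLC3A2 had a difference of 0.04 (adjusted p = 0.607, edgeR). SLC7A5 was outside the call rule with library size only (-0.89), in the model of 12 libraries (-0.96) and without A549-NEO replicate 3 (-0.9998) or PC9-NEO replicate 2 (-0.95). VLDLR was lower by 3.76, from 99.4, 114 and 102 CPM to 6.47, 7.54 and 9.32 CPM. ATF3 (-2.29), CEBPG (-1.76), DDIT4 (-1.56), SEL1L (-1.44), CTH (-1.37) and DNAJB9 (-1.19) were also called lower. ATF3 was -3.08 without PC9-NEO replicate 1, and CTH -0.9981 without PC9-NEO replicate 3, where it was outside the call rule. CHAC1 had a difference of -0.19 (SE 0.27) that did not pass.

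**Figure D4:**
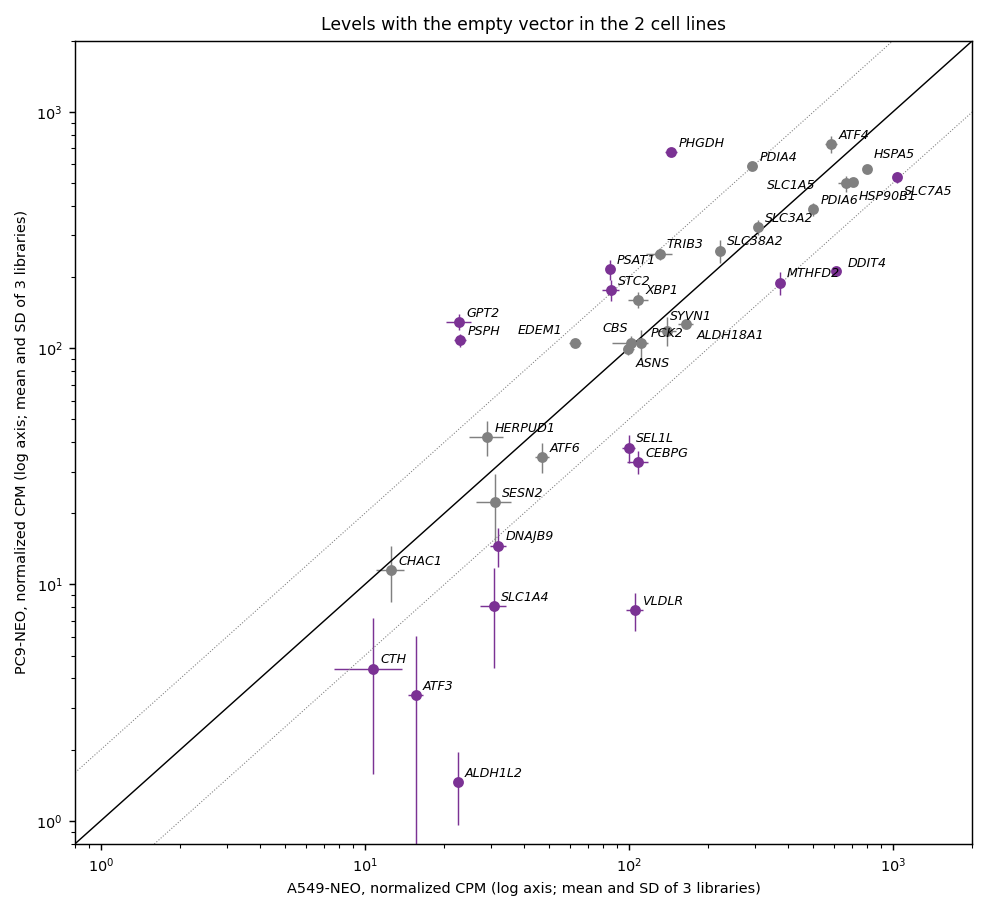
Mean normalized CPM of the 36 genes in A549-NEO (x axis, log scale) and PC9-NEO (y axis, log scale), with the SD of 3 libraries; the solid line marks equal levels, the dotted lines a log2 difference of 1, and purple points were called. PHGDH, PSAT1, PSPH, GPT2 and, at its edge, STC2 lay above the upper dotted line, ALDH1L2 and VLDLR lay farthest below, and the lower bar of ATF3 runs past the axis.

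Per kilobase of the canonical transcript, the levels of A549-NEO ran from 411 CPM for ATF4, 349 for DDIT4 and 255 for HSP90B1 down to 3.02 for ALDH1L2. In PC9-NEO the highest were ATF4 at 513, PHGDH at 361 and PDIA4 at 212 CPM per kilobase. Of the counts over the 12584 genes used, which are not all genes, the 36 genes made up 0.785% to 0.801% in A549-NEO and 0.752% to 0.793% in A549-HOXC6. Their share was 0.752% to 0.803% in PC9-NEO and 0.681% to 0.711% in PC9-HOXC6. The PC9-HOXC6 shares lay below those of every other library.

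Of 111 further genes of these pathways, 81 were in the table. The kinase genes EIF2AK3 (PERK) and ERN1 (IRE1) and the factor gene DDIT3 (CHOP) were not analysed here. In A549, 17 of 78 tested rose and 29 fell, beside 18.9% and 20.7% of all genes, and in PC9 12 of 76 rose and 16 fell, beside 13.3% and 14.2%. EIF2AK4 (GCN2), the kinase that senses uncharged tRNA, had log2 fold changes of -0.06 and 0.07 and passed in neither. PPP1R15A (GADD34), the phosphatase subunit that reverses eIF2alpha phosphorylation, fell in A549 by 0.45 (adjusted p = 0.00248, edgeR) and rose in PC9 by 0.39 (adjusted p = 0.0129, edgeR), with a difference of 0.78 (SE 0.16, adjusted p = 0.000503, edgeR). The rise of PPP1R15A in PC9 did not pass after the GC correction (0.13), with library size only (0.30) or without PC9-NEO replicate 1 (0.34).

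Of 9 genes listed as other ATF4 targets and tested in A549, none rose, 5 fell and 4 did not pass. Of all genes, 18.9% rose and 20.7% fell there. In PC9 2 of 8 tested rose and 1 fell, beside 13.3% and 14.2%. The difference between the lines passed for 4 of the 9, each higher in PC9, beside 8.44% of all genes. GDF15, a stress cytokine, stood at 800.3, 865 and 829 CPM in A549-NEO and at 262, 255 and 327 CPM in A549-HOXC6. It fell by 1.61 without overlap (SE 0.09, adjusted p = 7.33e-14, edgeR), while CHAC1 rose in the same libraries. In PC9 GDF15 had -0.28 and did not pass. SESN1, a sestrin, fell in A549 by 1.21 on 5 to 45 counts per library. After the GC correction it was at -0.84, outside the call rule.

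Aminoacyl-tRNA synthetases, which charge tRNAs and include ATF4 targets, numbered 15 in the table. In A549 4 of the 15 rose and 8 fell, beside 18.9% and 20.7% of all genes, and in PC9 none rose and 7 fell, beside 13.3% and 14.2%. After the GC correction none rose in A549 and 6 fell. EPRS1 fell in A549 by 1.25 (SE 0.11, adjusted p = 2.05e-09, edgeR), from 197, 184 and 171 CPM to 90.1, 76.9 and 70.4 CPM. EDEM3, of the degradation pathway, fell there by 1.21, and PYCR3, a proline enzyme, rose by 1.19. After the GC correction they were at -0.59 and 0.87, outside the call rule.

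In PC9 the 2 calls among these genes were SLC7A11 and ASL, beside 4.53% of all genes. SLC7A11, the cystine importer that pairs with SLC3A2, went from 85.8, 78.4 and 83.8 CPM to 18.8, 16.2 and 21.3 CPM in PC9, with no overlap. It fell by 2.09 there (SE 0.15, adjusted p = 1.75e-11, edgeR). In A549 it fell by 0.75 (SE 0.17, adjusted p = 0.00094, edgeR), or had -0.04 after the GC correction, with a difference of -1.39 (SE 0.24, adjusted p = 3.77e-05, edgeR). ASL, argininosuccinate lyase, fell in PC9 (-1.199, SE 0.31, adjusted p = 0.00407, edgeR) on 9 to 44 counts per library. Without PC9-NEO replicate 1 it was -0.92, outside the call rule. In A549 it rose by 1.05 (SE 0.30, adjusted p = 0.007, edgeR), and the difference was -2.29 (SE 0.44, adjusted p = 0.000181, edgeR).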

How the data were processed

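Poly(A) RNA was sequenced by the authors as paired reads of 150 bp after a directional library kit. They aligned reads to GRCh37.p13 with HISAT2 2.1.0 and counted them per gene with HTSeq 0.9.1 (versions per the submitters' processing notes). The deposited values are the authors' raw counts per gene, with 1 column per library and no normalization or pooling. Of the table used here, 12584 genes were complete and 1 incomplete entry was left out, so totals, scaling and adjustment cover those genes. Gene names came from the GENCODE annotation of GRCh37 (12463 matched). Groups were taken from the labels.

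In each comparison, genes with low counts were removed by filterByExpr, libraries were scaled by TMM, and edgeR 4.0.16 (quasi-likelihood, R 4.3.3) was fitted without a block to the 6 libraries compared, or to 12 for the difference between lines. The p-values were adjusted over all genes tested. Calls used the study's thresholds. DESeq2 1.42.0, other scalings and filters, a GC and length correction (mgcv 1.9.3), a replicate block and leaving out each library were alternatives. On simulated counts, 96.4% of changed genes were recovered in A549 (8754 genes), 95.9% in PC9 (8386 genes) and 82.5% for the difference between the lines (9053 genes), where DESeq2 recovered 76%. These shares are for genes altered in those counts by design. Whether they hold for the members, at their fold changes and spread, was not tested. The members, their roles, the pathway lists and the alternatives were chosen with earlier results of these data known. Values by library are given for members called in either line or in the difference, for those past adjusted p of 0.05 with a log2 fold change beyond 0.58 in either line, and for ATF4, HSPA5, XBP1 and ASNS. Beyond the members, at most the 5 called pathway genes with the largest change per line were named, besides EIF2AK4 and PPP1R15A. DDIT4, PHGDH and VLDLR were added after their values were seen. Canonical transcripts gave GC content and the lengths for CPM per kilobase. The length in the correction was that of all annotated exons of a gene joined.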

Additional observations from a re-analysis of the deposited data

Results flagged for a closer look

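The HOXC6 effect differed between the lines for 14 of the 36 genes in edgeR's quasi-likelihood test of the difference (adjusted p below 0.05), and these differences are listed as PC9 minus A549 on the log2 scale. Among the transporters they were -1.06 for SLC7A5, -1.11 for SLC3A2, -1.27 for SLC1A4 and -0.37 for SLC1A5. For the enzymes they were -0.85 for PSAT1, -1.12 for PSPH and -1.04 for GPT2. For the factors they were -0.73 for XBP1 and 0.69 for CEBPG, and for the chaperones 0.47 for HSPA5 and 0.46 for HSP90B1. HERPUD1 had -0.71, CHAC1 had -3.11 and DDIT4 had 0.90. The directions within the lines were opposite and passed the threshold in both for DDIT4, SLC7A5 and SLC3A2. For XBP1 they did so in the edgeR fit reported, but the PC9 change did not pass with DESeq2, nor the A549 change with the GC correction. The PC9 change of XBP1 passed with that correction, at -0.42.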

How the results depend on the processing

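Depth limits the low genes: SLC1A4, VLDLR, CTH, ATF3 and ALDH1L2 had fewer than 30 counts in every PC9 library. The HOXC6 effect in PC9 was not tested for ATF3 and ALDH1L2. For SLC1A4, VLDLR and CTH, a PC9 value that did not pass does not show that there was no change. With single libraries left out, the members called numbered 2 to 3 in A549 (12 to 13 higher, 9 to 11 lower), 0 in PC9 (3 higher, 5 to 8 lower), 13 to 16 for the lines (10 to 12 higher, 17 to 19 lower) and 5 to 6 for the difference (3 to 5 higher, 7 to 11 lower). The GC and length correction left 1 member called in A549, also with the replicate block, because HSP90B1 was then at -0.89, and 1 higher member in PC9, also with the block, where 11 were lower. Library size scaling gave 11 lower and 2 higher in PC9. Shares of all genes were not worked out for that scaling or with libraries left out, so those counts cannot be set beside all genes. A limit of 0.58 gave 12 called in A549, 2 in PC9 and 11 for the difference, beside 22.6%, 12.3% and 13.9% of all genes. The cause was not tested for these, other than the lower limit itself.

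Some single values turned sign. With the GC correction 5 members did so in A549 (ATF6, SESN2, SLC38A2, PHGDH and ALDH18A1) and 7 in PC9 (DNAJB9, SYVN1, SLC1A5, PHGDH, PSAT1, MTHFD2 and PCK2), and of these SLC1A5 passed once corrected, at -0.21. With library size only, ASNS in A549 was -0.02295 and EIF2AK4 in PC9 -0.00999, and with at least 10 counts ASNS in A549 was -0.005779. With the GC correction, without and with the block, SLC38A2 in A549 was 0.0542 and 0.04511, DNAJB9 in PC9 0.1418 and 0.1838, and PSAT1 in PC9 0.09225 and 0.0762. Leaving out libraries gave ranges in A549 of -0.01634 to 0.05472 for ASNS and -0.1609 to 0.04981 for EIF2AK4. In PC9 they were -0.1406 to 0.08474 for HERPUD1, -0.04308 to 0.2668 for EIF2AK4, -1.106 to 0.01222 for SLC1A4, -0.1146 to 0.0322 for PSAT1 and -0.03276 to 0.2587 for CEBPG. None of these had passed the threshold in the fit reported except SLC38A2 in A549.

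The replicate numbers did not pair the samples: deviations of same-numbered libraries correlated between -0.0263 and 0.0423. With the replicate block alone, 2 members were called in A549 (13 higher, 11 lower), 0 in PC9, 15 for the lines (STC2 lost) and 6 for the difference, where 12 rather than 10 were lower. Shares of all genes were not worked out with the block.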
